A study of Mus musculus with 30 samples.

Results

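The 9 genes described here are the cyclins, kinases and partner proteins of mitosis Cdk1, Ccna2, Ccnb2, Bub1, Plk1, Birc5, Aurkb, Top2a and Mki67, out of 17097 genes measured on 30 microarrays. They were chosen by name, with earlier results of these data known. A probe set counted for a gene only if it was annotated to that gene's symbol alone. All 9 had such a probe set, and 14 probe sets belonged to them in all. Each gene was read from the probe set whose mean over the 30 arrays was highest, which left 5 probe sets of Ccna2, Bub1, Aurkb and Top2a aside. The 9 genes passed the filter on low values in both cell fractions, so every comparison below rests on 9 tested genes.

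Cells enter mitosis when the kinase CDK1 is switched on by cyclin A and then by B-type cyclins, and they leave it when those cyclins are destroyed. Polo-like kinase 1, Aurora kinase B with its partner survivin, and the checkpoint kinase BUB1 then steer the spindle, the attachment of chromosomes to it and the timing of their separation. The transcripts of these genes are low in resting lymphocytes and are made mainly late in the cell cycle, and T cells stimulated by antigen divide many times, so the transcripts are widely used as signs of proliferation in lymph nodes.

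The arrays held RNA of CD4+ cells and of CD11c+ cells. The donors were BALB/c mice of the DO11.10 RAG2-/- genotype, aged 8 to 10 weeks. In all of these mice the T cells carry 1 transgenic receptor for an ovalbumin (OVA) peptide, and loss of RAG2 prevents the rearrangement of other antigen receptors, so B cells are lacking in every group, controls included. For each fraction there were 5 groups of 3 arrays. The abatacept group received 100 micrograms of OVA per mouse by subcutaneous injection in complete Freund's adjuvant, which is called priming here, and was given 10 mg/kg of abatacept, a fusion of CTLA-4 to an antibody tail that occupies CD80 and CD86 and thereby keeps them from CD28. The control IgG group was primed likewise and given 10 mg/kg of control IgG, and the primed group was primed with nothing added. The tolerised group drank OVA in its water, at 50 mg of OVA per ml in one label and per kg in the study's design text, and the unimmunised group was not immunised. CD4+ cells were purified by magnetic negative selection from axillary lymph nodes in the abatacept, control IgG and primed groups, and the tolerised group gave mesenteric lymph nodes. In the unimmunised group lymph nodes were pooled with spleen. CD11c+ cells were purified with microbeads from lymph nodes pooled with spleen in every group, and purity was over 90% for both fractions per the labels. In the abatacept, control IgG and primed groups cells were taken 10 days after immunisation. No such day is recorded for the tolerised and unimmunised groups. Nothing in the labels says that the arrays of a group came from separate mice, so the spread behind each p-value is that of these samples and may be technical.

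Within a group, arrays correlated with each other at 0.983 to 0.995 over all probe sets. Of 11 T cell markers 9 were measured, and all 9 lay above the array median in every CD4+ group. The T cell list averaged 10.03 to 10.17 on the CD4+ abatacept arrays, 10.10 to 10.16 on the control IgG arrays, 10.05 to 10.21 on the primed arrays, 9.89 to 9.97 on the tolerised arrays and 8.62 to 8.69 on the unimmunised arrays. The CD4+ unimmunised arrays, from lymph nodes and spleen, stood apart. On them all 7 erythroid markers measured lay above the array median, and their mean was 8.63 to 9.01, against 3.92 to 4.34 over the other 4 CD4+ groups. The 9 neutrophil markers measured averaged 9.91 to 10.16 there, against 3.37 to 5.35 in the other 4 CD4+ groups. CD11c+ arrays held Itgax, the gene for CD11c itself, at 9.56 to 10.29, but also red blood cell, neutrophil and T cell transcripts in all groups. All levels are log2 values of the robust multi-array average (RMA), and the median of an array lay between 4.4555 and 4.544. RMA levels tend to understate large differences, and they are compared here only within a gene.

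Promoters of the mouse reference show which of the 9 genes carry the sequence elements that mark late cell cycle genes in the literature. RefSeq windows of 300 bases (250 before to 50 after the gene's start, build GRCm38.p6) matched 7 of the 9 genes, Bub1, Plk1, Mki67, Ccnb2, Cdk1, Top2a and Birc5. Not matched were Ccna2 and Aurkb. By the same build the 9 genes lie on chromosome 2 (Bub1), 3 (Ccna2), 7 (Plk1 and Mki67), 9 (Ccnb2), 10 (Cdk1) and 11 (Aurkb, Top2a and Birc5). Below are 3 of the 4 windows that held 2 cell cycle homology region (CHR) cores and at least 3 CCAAT boxes, those of Ccnb2, Cdk1 and Top2a, and beside them that of Birc5, which held neither. Capitals mark the CHR core TTTGAA and the CCAAT box on either strand, so that TTCAAA and ATTGG are the same elements read from the other strand.
Ccnb2: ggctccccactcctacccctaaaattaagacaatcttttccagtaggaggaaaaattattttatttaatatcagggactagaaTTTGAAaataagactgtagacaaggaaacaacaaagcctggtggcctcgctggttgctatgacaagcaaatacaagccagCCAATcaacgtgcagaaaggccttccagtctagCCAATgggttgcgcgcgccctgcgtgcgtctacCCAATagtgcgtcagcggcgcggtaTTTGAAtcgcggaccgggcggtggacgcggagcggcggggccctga
Cdk1: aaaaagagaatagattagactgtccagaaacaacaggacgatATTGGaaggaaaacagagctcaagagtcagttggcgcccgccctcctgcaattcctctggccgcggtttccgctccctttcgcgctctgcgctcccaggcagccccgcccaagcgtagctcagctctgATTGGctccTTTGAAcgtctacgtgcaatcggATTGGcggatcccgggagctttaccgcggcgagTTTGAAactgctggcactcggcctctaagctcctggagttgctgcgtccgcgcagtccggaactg
Top2a: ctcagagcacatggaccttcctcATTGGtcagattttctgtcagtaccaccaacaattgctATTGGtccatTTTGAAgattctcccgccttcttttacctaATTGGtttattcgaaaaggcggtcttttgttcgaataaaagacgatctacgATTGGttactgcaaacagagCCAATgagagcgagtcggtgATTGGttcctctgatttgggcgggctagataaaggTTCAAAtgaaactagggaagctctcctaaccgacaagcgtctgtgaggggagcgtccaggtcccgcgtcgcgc
Birc5: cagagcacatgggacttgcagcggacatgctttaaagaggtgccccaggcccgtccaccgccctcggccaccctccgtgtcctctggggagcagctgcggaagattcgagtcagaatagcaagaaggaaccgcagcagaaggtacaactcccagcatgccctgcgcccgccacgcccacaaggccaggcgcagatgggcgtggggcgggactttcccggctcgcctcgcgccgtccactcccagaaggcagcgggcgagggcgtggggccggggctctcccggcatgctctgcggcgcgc
The windows lie at chr9:70421505-70421804 for Ccnb2, chr10:69352863-69353162 for Cdk1 and chr11:99024140-99024439 for Top2a, all on the minus strand, and at chr11:117848987-117849286 on the plus strand for Birc5. Ccnb2 had 2 CHR cores and 3 CCAAT boxes, Cdk1 had 2 and 3, and Top2a had 2 and 6. Mki67 had 2 CHR cores and 3 CCAAT boxes, Plk1 had 1 of each, and Bub1 had 2 CCAAT boxes with no match to TTTGAA. Other spellings of the CHR core were not searched. A CHR core was found in 17.9% of 32851 promoter windows of the same length, 2 or more CCAAT boxes in 11.7%, and both together in 2.09%. Both together stood in 4 of the 7 windows here, those of Ccnb2, Cdk1, Top2a and Mki67. An E2F motif (TTTGGCGC, TTTCCCGC or TTTCGCGC, either strand) was found in 1.84% of all windows and, among the 7, in that of Cdk1, where it overlaps no CHR core or CCAAT box. A match to these letters is a description of the window.

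In CD4+ cells of primed mice, all 9 genes fell with abatacept relative to control IgG, by 2.39 to 7.27 times. Among all 10322 genes tested 13.4% were called lower, and the median over all genes was -0.07 on the log2 scale, against -2.41 over the 9. On 9 of 9 genes every abatacept array lay below every control IgG array, as was so for 26.5% of all genes. Calls here are limma tests with a Benjamini-Hochberg adjusted p under 0.05 over all genes tested. On bulk arrays such as these, fewer dividing cells and less RNA of these genes per cell cannot be told apart.

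Cdk1, the kinase that drives entry into mitosis, read 4.96, 4.79 and 4.71 on the 3 CD4+ abatacept arrays, against 7.20, 7.53 and 6.95 on the control IgG arrays. Its log2 difference was -2.41 ± 0.14 (SE), 5.31 times lower, with a limma adjusted p of 2.7e-07. Ccna2, cyclin A2, which works with CDK2 in S phase and with CDK1 afterwards, read 5.74, 5.76 and 6.03 with abatacept, against 8.35, 8.83 and 8.52 with control IgG. No value of one group reached the other, and the log2 difference was -2.72 ± 0.14 (SE), 6.60 times lower (limma adjusted p 6.9e-08). Ccnb2, a B-type cyclin that binds CDK1 in mitosis, read 5.52, 4.89 and 4.83 with abatacept, against 7.85, 8.15 and 7.83 with control IgG. It had the largest difference of the 9, -2.86 ± 0.20 (SE), 7.27 times lower (limma adjusted p 8.6e-07), and ranked 8 from the bottom among all 10322 genes.

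Among the kinases that act on the spindle and its attachments, Plk1, polo-like kinase 1, which promotes mitotic entry and spindle assembly, read 4.72, 5.01 and 4.78 on the CD4+ abatacept arrays, against 6.0, 6.13 and 6.16 on the control IgG arrays. The groups lay apart, but the log2 difference of -1.26 ± 0.12 (SE, limma adjusted p 1.3e-05) was the smallest of the 9. Its 95% interval of -1.52 to -1.0 did not reach that of Ccnb2, -3.30 to -2.42. The abatacept values of Plk1 lay not far above their array's median, and how far this limits its difference was not tested. Bub1, a kinase of the spindle checkpoint that delays chromosome separation until all chromosomes are attached, read 2.93, 3.24 and 2.97 with abatacept, against 4.56, 5.27 and 4.37 with control IgG. All 3 abatacept values of Bub1 lay below their array's median, so its log2 difference of -1.69 ± 0.26 (SE, limma adjusted p 0.00063) starts from a dim probe set. Aurkb, Aurora kinase B, the catalytic member of the chromosomal passenger complex, read 4.85, 4.47 and 3.96 with abatacept, of which 1 lay above the array median, against 6.32, 6.59 and 6.61 with control IgG. It was 4.23 times lower, at -2.08 ± 0.21 (SE, limma adjusted p 1.9e-05). Birc5, survivin, which tethers Aurora kinase B to the centromere as part of the same complex, read 5.90, 5.60 and 5.37 with abatacept, against 8.18, 8.58 and 8.11 with control IgG. Its log2 difference was -2.67 ± 0.17 (SE), 6.36 times lower (limma adjusted p 3.2e-07).

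The last of the 9 act on the chromosomes themselves. Top2a, topoisomerase II alpha, which untangles sister chromatids, read 5.76, 5.32 and 5.22 on the CD4+ abatacept arrays, against 7.79, 8.30 and 7.78 on the control IgG arrays, a log2 difference of -2.52 ± 0.17 (SE, limma adjusted p 5.8e-07). Mki67, the gene of the Ki-67 protein that coats mitotic chromosomes and serves as a stain for dividing cells, read 8.89, 8.65 and 8.34 with abatacept, against 10.66, 10.98 and 10.67 with control IgG, a log2 difference of -2.14 ± 0.15 (SE, limma adjusted p 8.2e-07). Every abatacept array was lower for both genes. The mean of the 9 was 5.30 ± 0.17 with abatacept and 7.57 ± 0.22 with control IgG (SD, n = 3 arrays each).

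**Figure D1:**
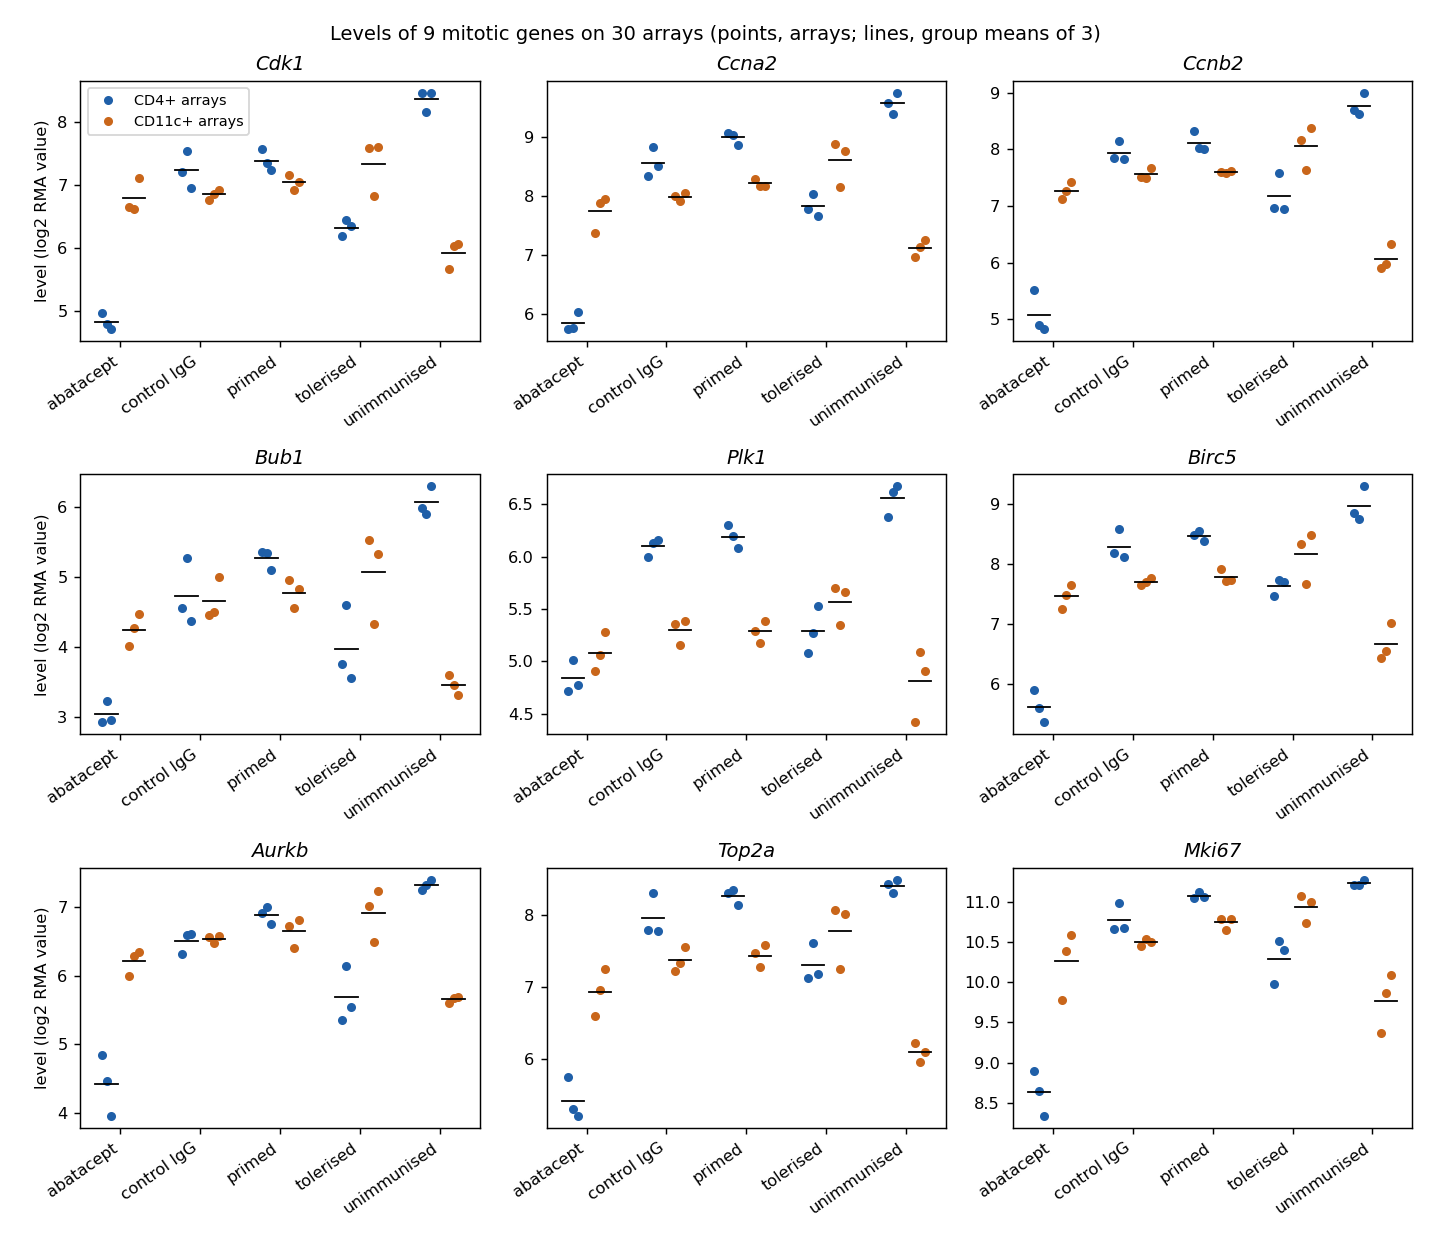
Level of each of the 9 genes (vertical axis, log2 RMA value, not starting at 0) in the 5 conditions (horizontal axis), with CD4+ arrays in blue and CD11c+ arrays in orange, points for single arrays and lines for means of 3. In CD4+ cells the abatacept arrays are the lowest and the unimmunised arrays the highest group means for every gene; in CD11c+ cells the unimmunised group has the lowest mean of every gene.

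Between these CD4+ groups most marker lists overlapped. The T cell markers averaged 10.03 to 10.17 with abatacept and 10.10 to 10.16 with control IgG. The erythroid list averaged 4.07 to 4.34 with abatacept and 4.14 to 4.26 with control IgG, and the neutrophil list 3.71 to 3.92 with abatacept and 3.65 to 3.90 with control IgG. The 5 natural killer cell markers measured averaged 5.64 to 5.98 with abatacept and 5.02 to 5.23 with control IgG, and the 6 macrophage and monocyte markers 4.39 to 4.52 and 4.81 to 4.91, whose part in the result was not tested. The Y-linked gene Eif2s3y read 2.41 to 2.76 with abatacept and 2.42 to 2.65 with control IgG.

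Control IgG itself was compared with priming alone, a check of the antibody treatment. In CD4+ cells 0 of the 9 genes were called by limma, 1 had an unadjusted p under 0.05, and 0.0872% of all genes were called in either direction. Ccna2 came nearest, at 8.35, 8.83 and 8.52 with control IgG against 9.08, 9.04 and 8.88 in primed mice, a log2 difference of -0.44 with a 95% interval of -0.74 to -0.13 and a limma adjusted p of 0.46. All 9 estimates were below 0, between -0.53 for Bub1 and -0.09 for Plk1, and Eif2s3y read 2.42 to 2.65 on the control IgG arrays and 8.49 to 8.82 on the primed arrays, a difference whose part in these values was not tested. With 3 arrays a group, a fall of 0.84 for Aurkb or 1.09 for Bub1 still lies inside the 95% intervals.

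In CD4+ cells of tolerised mice all 9 genes were lower than in primed mice, by 1.71 to 2.45 times on the probe sets used, where 8.43% of all genes tested were called lower. The median log2 difference of the 9 was -0.96, and that of all genes was -0.05. Cdk1 read 6.18, 6.44 and 6.34 on the tolerised arrays, against 7.56, 7.35 and 7.24 on the primed arrays (log2 difference -1.06 ± 0.14 SE, limma adjusted p 0.00039). Ccna2 read 7.78, 8.04 and 7.67, against 9.08, 9.04 and 8.88 in primed mice (-1.17 ± 0.14 SE, limma adjusted p 0.00014). Ccnb2 read 6.97, 7.58 and 6.95 in tolerised mice and 8.33, 8.03 and 8.01 in primed mice. The 3 genes of the CDK1 engine thus lay apart between the groups on every array.

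Bub1 stood at -1.29 ± 0.26 (SE, limma adjusted p 0.0047), at 3.76, 4.61 and 3.56 on the tolerised arrays and 5.36, 5.35 and 5.10 on the primed arrays. The middle tolerised array alone lay above its array median. Another probe set of Bub1 gave 0.21 ± 0.19 (SE, limma adjusted p 0.52), and the mean of its probe sets gave -0.54. Top2a stood at -0.44 with the mean of its probe sets, against -0.96 with the one used, and both means remained past the threshold. The other probe sets of Top2a, read alone, gave -0.37 ± 0.17 and 0 ± 0.08 (SE, limma adjusted p 0.16 and 0.98). Plk1 read 5.08, 5.27 and 5.53 in tolerised mice and 6.30, 6.20 and 6.08 in primed mice, and Aurkb read 5.36, 6.15 and 5.55 in tolerised mice and 6.92, 7.0 and 6.76 in primed mice. Their log2 differences were -0.89 ± 0.12 and -1.21 ± 0.21 (SE), with limma adjusted p of 0.00039 and 0.0021. For Birc5 the values were 7.47, 7.74 and 7.70 with tolerance and 8.48, 8.55 and 8.38 with priming. Top2a read 7.13, 7.62 and 7.19 in tolerised mice and 8.31, 8.35 and 8.14 in primed mice, and Mki67 9.97, 10.51 and 10.40 and 11.04, 11.12 and 11.05. Mki67 differed by -0.78 ± 0.15 (SE, limma adjusted p 0.0040). For all 9 genes the tolerised arrays lay below the primed arrays, as was so for 19.0% of all genes tested.

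Tissue and treatment changed together in that comparison, mesenteric against axillary nodes, and cannot be told apart. The neutrophil list averaged 4.15 to 5.35 on the tolerised arrays and 3.37 to 3.83 on the primed arrays. The 6 mast cell and basophil markers averaged 4.69 to 6.21 and 3.39 to 3.45, and the natural killer cell list 6.32 to 6.96 and 5.02 to 5.24. In the same order, the red pulp macrophage list averaged 4.17 to 4.94 and 3.58 to 3.70. The 4 sex-linked genes measured averaged 7.13 to 7.37 and 8.06 to 8.40. Their part in the result was not tested.

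Abatacept-treated CD4+ cells held less of all 9 transcripts than tolerised CD4+ cells, where 15.8% of all genes tested were called lower. The median log2 difference of the 9 was -1.67, against -2.41 for abatacept over control IgG and -0.96 for tolerised over primed. Birc5, at 5.90, 5.60 and 5.37 with abatacept and 7.47, 7.74 and 7.70 in tolerised mice, was 4.03 times lower (log2 difference -2.01 ± 0.17 SE, limma adjusted p 4e-06). Ccnb2 was 4.24 times lower, and Plk1 only 1.37 times, at -0.46 ± 0.12 (SE, limma adjusted p 0.017). The arrays of the groups lay apart for all 9 genes, as for 21.4% of all genes. The calls of Plk1 and Bub1 were each lost in 4 of 12 alternatives, with adjusted p of up to 0.090 for Plk1 and 0.076 for Bub1. The mast cell and basophil list averaged 3.44 to 3.72 with abatacept and 4.69 to 6.21 in tolerised mice, the natural killer cell list 5.64 to 5.98 and 6.32 to 6.96, and the macrophage and monocyte list 4.39 to 4.52 and 5.04 to 6.35. Eif2s3y read 2.41 to 2.76 with abatacept and 8.84 to 8.96 in tolerised mice. The part of these was not tested, and the cells came from axillary nodes in the abatacept group and from mesenteric nodes in the tolerised group.

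The unimmunised CD4+ arrays had the highest mean of all 10 groups for each of the 9 genes. Ccna2 read 9.59, 9.40 and 9.76 there, Cdk1 8.46, 8.15 and 8.46, Ccnb2 8.70, 8.62 and 9.0, and Bub1 5.99, 5.91 and 6.30. In primed mice 6 of the 9 were lower than in unimmunised mice (24.2% of all genes tested were called lower), with a median log2 difference of -0.49. They were Cdk1 at -0.98 ± 0.14 (SE, limma adjusted p 8.8e-05), Ccna2, Ccnb2, Bub1, Plk1 and Birc5. The other three, Aurkb at -0.44, Mki67 at -0.16 and Top2a at -0.14, had limma adjusted p of 0.11, 0.41 and 0.52. Leaving out the third primed or the third unimmunised array gave a count of 2 in place of 6. The tolerised mice were lower than unimmunised mice for 9 of 9 genes (29.3% of all genes), with a median of -1.60, and so were abatacept-treated mice (34.5% of all genes), with a median of -3.02. The fold between abatacept-treated and unimmunised mice reached 13.4 for Ccna2 and was 3.30 for Plk1.

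Other cells were present on the unimmunised CD4+ arrays to which all 3 of those comparisons refer. Klf1, an erythroid transcription factor, read 9.34, 9.05 and 9.30 there, and at most 3.41 on every other CD4+ array. Slc4a1, the red cell anion exchanger, read 10.34, 10.53 and 10.95, and Mpo, a granule enzyme made by neutrophil precursors, read 11.11, 11.17 and 11.33. Erythroid and myeloid precursors are themselves dividing cells. The T cell list was lower there, at 8.62 to 8.69, and the red pulp macrophage list averaged 8.42 to 8.61, against 3.49 to 4.94 over the other CD4+ groups. The 4 sex-linked genes measured averaged 4.93 to 5.02 on the unimmunised arrays and 4.99 to 5.08 on the abatacept arrays. They averaged 8.06 to 8.40 on the primed arrays and 7.13 to 7.37 on the tolerised arrays. The part of all these markers in the high mitotic levels was not tested. Unimmunised nodes were pooled with spleen and the other CD4+ groups gave axillary or mesenteric nodes, so tissue and treatment cannot be told apart.

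**Figure D2:**
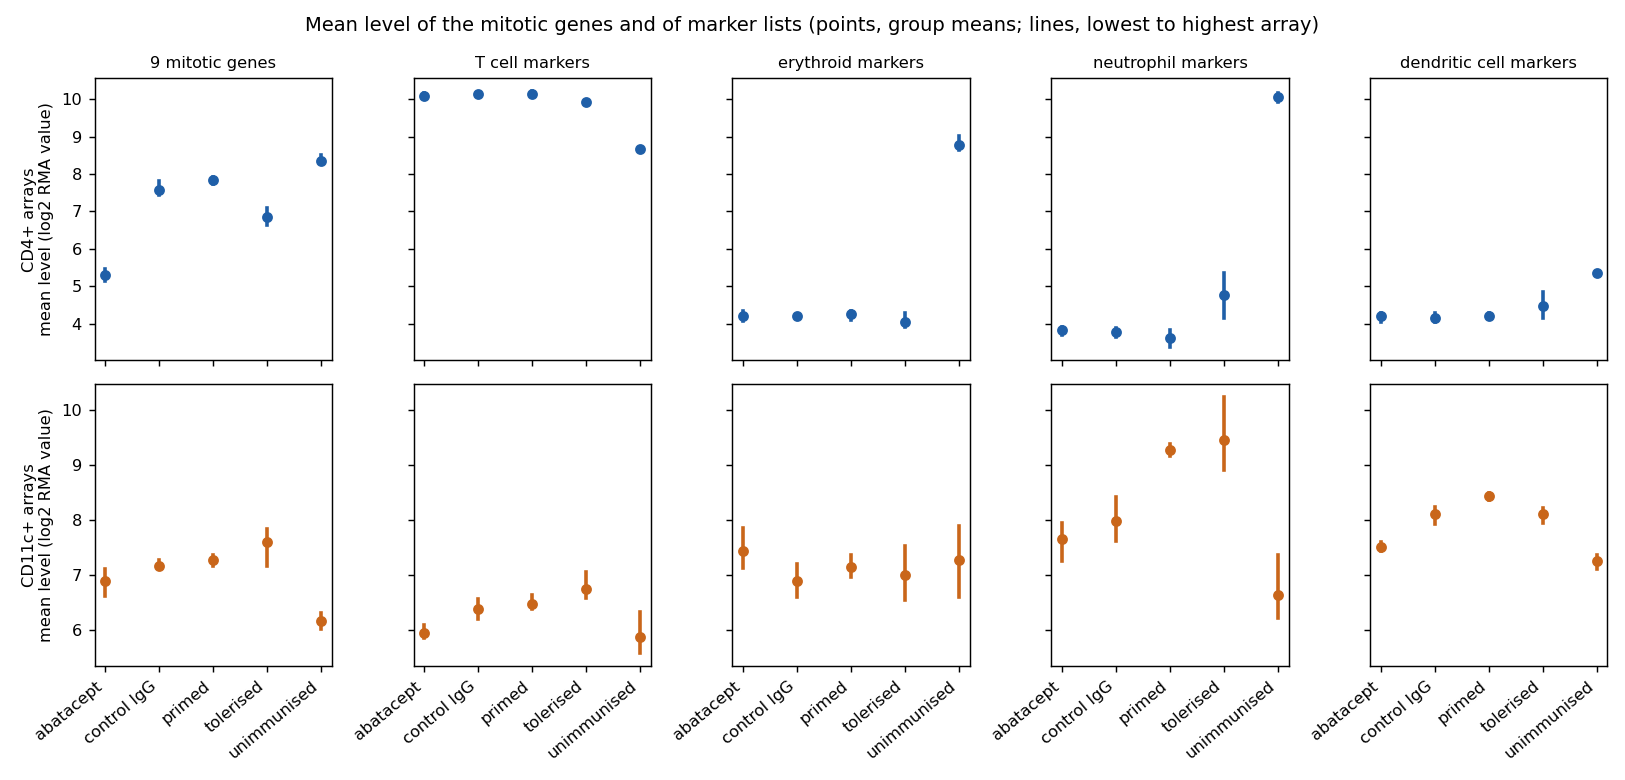
Mean level (vertical axis, log2 RMA value) of the 9 mitotic genes and of the T cell, erythroid, neutrophil and dendritic cell marker lists in the 5 conditions, for CD4+ arrays in the top row and CD11c+ arrays in the bottom row, with points for group means and lines from the lowest to the highest array. The CD4+ unimmunised group has the highest mean of the mitotic genes (8.36), of the erythroid list (8.78) and of the neutrophil list (10.05) among CD4+ groups.

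In the CD11c+ fraction the unimmunised group was the lowest. All 9 genes were higher in primed than in unimmunised mice, by 1.39 to 2.90 times, where 25.5% of all genes tested were called higher. The median of the 9 was 1.12 and that of all genes 0.09 on the log2 scale. Ccnb2 read 7.60, 7.58 and 7.62 on the primed arrays and 5.90, 5.97 and 6.33 on the unimmunised arrays, a log2 difference of 1.54 ± 0.16 (SE, limma adjusted p 2.1e-05). Cdk1 read 7.15, 6.92 and 7.04 in primed mice and 5.66, 6.03 and 6.06 in unimmunised mice (1.12 ± 0.19 SE, limma adjusted p 0.00064). Top2a read 7.47, 7.28 and 7.58 in primed mice and 6.23, 5.97 and 6.10 in unimmunised mice (1.35 ± 0.20 SE, limma adjusted p 0.00025). Primed and unimmunised arrays lay apart for these 3 genes and for the other six, as for 33.1% of all genes in this direction.

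Bub1 was above the array median on all 3 primed CD11c+ arrays, at 4.96, 4.56 and 4.83, and on 0 of 3 unimmunised arrays, at 3.61, 3.47 and 3.32. Ccna2 read 8.30, 8.17 and 8.17 in primed mice and 6.96, 7.13 and 7.25 in unimmunised mice, and Aurkb 6.72, 6.41 and 6.82 and 5.60, 5.68 and 5.69. Plk1 rose least, by 0.48 ± 0.16 (SE, limma adjusted p 0.027), and stood at 0.29 (adjusted p 0.12) without the first unimmunised array. Its call was also lost without primed array 1 or 3 (adjusted p 0.063 and 0.091) and with only the groups compared (0.06), so 8 to 9 of the genes were called as 1 array was left out. A second probe set of Bub1 was called in the opposite direction here, at -0.26 ± 0.09 (SE, limma adjusted p 0.033), and in abatacept against unimmunised mice, at -0.49 (adjusted p 0.015). The other probe sets of Top2a gave 0.19 and 0.12 for primed against unimmunised mice (limma adjusted p 0.36 and 0.57). Birc5 and Mki67 were 2.17 and 1.95 times higher in primed mice.

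Tolerised CD11c+ cells were also higher than unimmunised ones for 9 of 9 genes (31.9% of all genes tested), with a median log2 difference of 1.49. The other probe set of Bub1 gave -0.19 there, and those of Top2a 0.38 and 0.02 (limma adjusted p 0.091, 0.063 and 0.92). Ccnb2 read 8.17, 7.63 and 8.38 in tolerised mice and 5.90, 5.97 and 6.33 in unimmunised mice, 3.99 times higher (limma adjusted p 1.8e-06). The tolerised arrays were uneven: the mean of the 9 genes was 7.82, 7.16 and 7.83 on replicates 1, 2 and 3, and replicate 2 was the lowest of the 3 for each of the 9. Against primed mice 0 of 9 genes were called by limma, 2 had an unadjusted p under 0.05, and 2.84% of all genes were called in either direction. The estimates ran between 0.20 for Mki67 and 0.46 for Ccnb2, whose 95% interval was 0.11 to 0.81. Without replicate 2 the tolerised group was higher than the primed group for 3 of 9 genes.

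Neutrophil and T cell transcripts moved with these CD11c+ comparisons. The neutrophil list averaged 9.15 to 9.38 on the primed arrays, 8.91 to 10.23 on the tolerised arrays and 6.22 to 7.37 on the unimmunised arrays. The T cell list averaged 6.39 to 6.64, 6.58 to 7.06 and 5.59 to 6.33, and the dendritic cell list 8.36 to 8.49, 7.95 to 8.22 and 7.11 to 7.36 in the same order. Mpo read 9.43, 7.49 and 6.58 on the 3 tolerised arrays, and Klf1 7.22, 5.67 and 5.41. Eif2s3y read 8.53 to 8.64 on the primed arrays, 2.40 to 2.84 on the tolerised arrays and 2.46 to 2.69 on the unimmunised arrays. The part of each in the results was not tested.

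In the CD11c+ fraction abatacept was compared with control IgG in the same way. With limma 0 of the 9 genes were called and 1 had an unadjusted p under 0.05, where 15.3% of all genes tested were called in either direction. Cdk1 read 6.64, 6.61 and 7.11 with abatacept and 6.76, 6.86 and 6.92 with control IgG, a log2 difference of -0.06 with a 95% interval of -0.48 to 0.36. Top2a had the largest estimate, -0.44 ± 0.20 (SE, limma adjusted p 0.17), at 6.60, 6.96 and 7.25 with abatacept and 7.22, 7.34 and 7.56 with control IgG. The first abatacept array was the lowest of the 6 for 8 of the 9 genes, Cdk1 being the exception. The intervals leave room for falls of up to 0.96 for Bub1 and 0.48 for Cdk1, so these data do not show that the genes stayed level. Marker lists differed between these groups. The dendritic cell list averaged 7.44 to 7.61 with abatacept and 7.92 to 8.23 with control IgG, and the T cell list 5.87 to 6.10 with abatacept and 6.21 to 6.56 with control IgG. The red pulp macrophage list averaged 10.5 to 10.6 with abatacept and 9.83 to 10.28 with control IgG. Eif2s3y read 2.72, 2.37 and 2.49 with abatacept and 8.76, 5.92 and 8.20 with control IgG. The part of these in the values of the 9 genes, and in the test between the fractions given further on, was not tested. Relative to priming alone, control IgG changed 0 of 9 genes by limma, 0 had an unadjusted p under 0.05, and 0.0196% of all genes were called in either direction.

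Against the other groups, abatacept-treated CD11c+ cells were lower than tolerised ones for 9 of 9 genes (20.9% of all genes tested), with a median log2 difference of -0.70. They were higher than unimmunised ones for 4 of 9 (2.10% of all genes), Ccnb2, Cdk1, Birc5 and Top2a. Ccnb2 read 7.13, 7.26 and 7.42 with abatacept and 5.90, 5.97 and 6.33 in unimmunised mice (1.20 ± 0.16 SE, limma adjusted p 0.0022), and Birc5 stood at an adjusted p of 0.050. The neutrophil list averaged 7.26 to 7.95 with abatacept and 8.91 to 10.23 in tolerised mice, the T cell list 5.87 to 6.10 and 6.58 to 7.06, and the dendritic cell list 7.44 to 7.61 and 7.95 to 8.22. The red pulp macrophage list averaged 10.5 to 10.6 with abatacept and 8.60 to 9.55 in tolerised mice. Their part in the result was not tested. On 5 CD11c+ arrays the salivary amylase gene Amy1 lay above 7, on 2 control IgG arrays and 1 each of the abatacept, tolerised and unimmunised arrays. Without those 5 arrays, a choice made after seeing the data, 3 of 9 genes were lower than in tolerised mice and 0 of 9 were higher than in unimmunised mice.

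**Figure D3:**
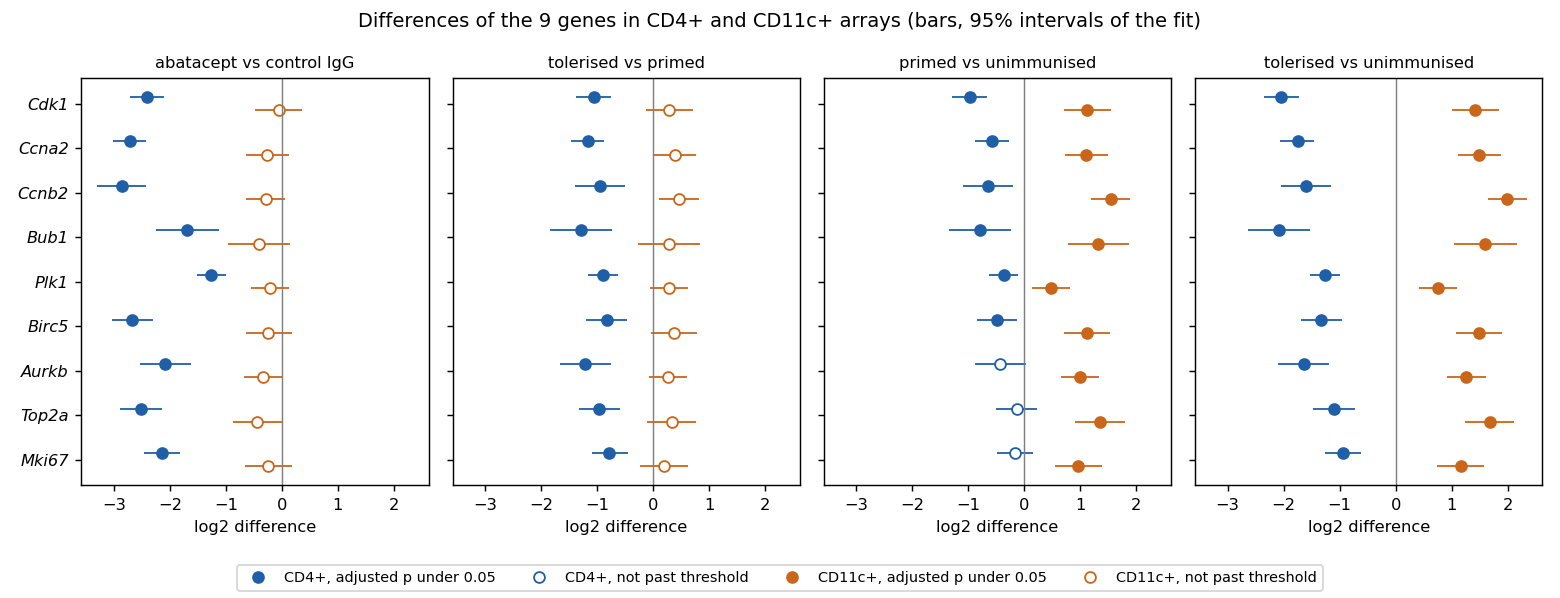
Log2 difference of each gene (horizontal axis, first-named minus second-named group, with 95% intervals of the fit) in CD4+ cells (blue) and CD11c+ cells (orange) for 4 comparisons, with filled points past an adjusted p of 0.05. In abatacept against control IgG the 9 CD4+ differences lie between -2.86 and -1.26 and the 9 CD11c+ differences between -0.44 and -0.06.

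The difference between the fractions was itself tested over all 30 arrays. The change with abatacept relative to control IgG was more negative in CD4+ than in CD11c+ cells for 9 of 9 genes, where 9.35% of all 10794 genes tested had an interaction called in that direction. The median interaction was -2.08 on the log2 scale, and it was largest for Ccnb2, at -2.57, and smallest for Plk1, at -1.04. The change between tolerised and primed mice differed in the same way for 9 of 9 genes (6.32% of all genes), with a median of -1.36. In that comparison the CD4+ estimates were all below 0 and the CD11c+ estimates all above it, although no CD11c+ estimate was called alone. Of the groups in it, Eif2s3y was low on the CD11c+ tolerised arrays only, and its part was not tested. For both interactions 8 to 9 genes were called as 1 array was left out. The gene that lost its call was Bub1 for abatacept, in 6 of 18 alternatives with adjusted p between 0.053 and 0.11, and Mki67 for tolerance, without the first CD4+ tolerised array (-0.81, adjusted p 0.053). Another probe set of Bub1 gave interactions of -0.18 and 0.14 (adjusted p 0.65 and 0.75). The other probe sets of Top2a gave -0.15 and 0.06 for abatacept (limma adjusted p 0.73 and 0.88). For tolerance they gave -0.56 and 0.11 (limma adjusted p 0.14 and 0.78).

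The fractions were also compared with each other within each condition. In abatacept-treated mice 8 of 9 genes were lower in CD4+ than in CD11c+ cells (35.7% of all genes), and in tolerised mice 8 of 9 (32.0%), Plk1 being the exception in both. In tolerised mice the count ran from 6 to 9 as 1 array was left out. There Top2a, at -0.47, kept its call in 2 of 12 alternatives and stood at -0.07 (adjusted p 0.46) with the mean of its probe sets, and Birc5, at -0.52, kept its call in 8 of 12. Ccnb2 averaged 5.08 ± 0.38 in CD4+ and 7.27 ± 0.15 in CD11c+ cells of abatacept-treated mice (SD, n = 3 arrays each). In mice given control IgG 4 genes, Birc5, Ccna2, Plk1 and Top2a, were higher in CD4+ cells (35.2% of all genes). In primed mice those 4 and Ccnb2 were higher (34.2%). Both counts are too small to set apart from the shares of all genes. With control IgG the count ran from 2 to 5 as 1 array was left out, and Aurkb stood at -0.03. In unimmunised mice all 9 were higher in CD4+ cells (38.7%), with a median of 2.32. CD4+ and CD11c+ cells of a condition came from different tissues in all but the unimmunised group. The CD4+ arrays of that group held the high erythroid, neutrophil and red pulp macrophage lists given above, whose part was not tested. With control IgG, the Y-linked gene Eif2s3y was low in CD4+ and higher in CD11c+ cells, at the values given above. In tolerised mice Eif2s3y was high in CD4+ and low in CD11c+ cells. Its part in these comparisons was not tested.

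Over the 10 groups the means spanned 13.4 times for Ccna2, 12.9 for Ccnb2, 11.6 for Cdk1, 10.1 for Birc5, 8.1 for Bub1, 7.9 for Top2a, 7.5 for Aurkb, 6.1 for Mki67 and 3.4 for Plk1. The lowest group was CD4+ abatacept for 8 genes and CD11c+ unimmunised for Plk1, whose mean there was 4.81 ± 0.35 against 4.84 ± 0.15 in CD4+ abatacept cells (SD, n = 3 arrays each), which overlap. Going down the order of means, neighbouring groups overlapped on their arrays in 4 of 9 steps for Ccna2 and Ccnb2, in 5 for Cdk1, in 6 for Birc5 and Mki67, and in 7 for Bub1, Plk1, Aurkb and Top2a. At the ends, CD4+ unimmunised lay apart from the next group for every gene but Top2a, and CD4+ abatacept from the next for every gene but Plk1. How often neighbouring groups lay apart over all genes was not counted, so these steps are descriptions. The CD4+ unimmunised arrays also held erythroid and neutrophil transcripts, whose part was not tested.

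The 9 genes moved together across arrays. Over the 15 CD4+ arrays, each gene's correlation with the mean of the other 8 ran from 0.940 for Plk1 to 0.991 for Ccnb2, and over the 15 CD11c+ arrays from 0.896 for Plk1 to 0.983 for Ccna2. Arrays of 1 group share a condition, and the labels do not say that they came from separate mice. These correlations are therefore descriptions. The genes outside the 9 most like their mean were Ncapg2 (r = 0.996), Rrm2, Cenpf and Kif22 (0.993 each) and Cdca8 (0.991) over the CD4+ arrays. Over the CD11c+ arrays they were Tpx2 and Aspm (0.989 each), Kif11 (0.988), Kif20a (0.986) and Kif22 (0.983).

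Further probe sets were present for 4 of the 9 genes. Those of Ccna2 and Aurkb gave like differences for abatacept against control IgG in CD4+ cells, -2.58 ± 0.16 and -1.86 ± 0.19 (SE, limma adjusted p 3.2e-07 and 2.2e-05). The second probe set of Bub1 gave -0.22 ± 0.19 (adjusted p 0.48) and those of Top2a -0.34 ± 0.17 and -0.11 ± 0.08 (adjusted p 0.19 and 0.41). For Bub1 and Top2a, the result of a probe set therefore depended on which one was read, and their other probe sets averaged 3.54, 4.95 and 2.67 over the 30 arrays.

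Lists of neighbouring genes of the cell cycle were counted in the same comparison of abatacept with control IgG in CD4+ cells. Over all genes tested 13.4% were called lower and 3.33% higher. Of 8 tested partners and regulators of CDK1 beyond the 9, 6 fell and 1 rose. Cks2, a small CDK-binding subunit, averaged 6.87 ± 0.02 with abatacept and 8.88 ± 0.18 with control IgG (SD, n = 3 arrays each), and Cdc25b, a phosphatase that activates CDK1, was 2.69 times lower. Mastl, a kinase that keeps an opposing phosphatase in check, was the 1 that rose, by 0.59 (limma adjusted p 0.042, named after its value was seen). Of 11 spindle checkpoint genes 10 fell, with a median of -1.45, among them Cdc20, the activator of the ubiquitin ligase that ends mitosis (-1.51 ± 0.12 SE, limma adjusted p 2.2e-06), and Knl1, a kinetochore scaffold (-2.16 ± 0.26 SE).

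Of 12 genes of anaphase and mitotic exit 9 fell. Ube2c, the ubiquitin-conjugating enzyme that marks cyclins for destruction, was 7.06 times lower, and Espl1, separase, which cuts the cohesin ring, 5.10 times. Among 6 partners of the passenger complex and Aurora kinases 5 fell, with the lists' lowest median of -2.14. Cdca8, borealin, fell by 2.73 and Aurka, Aurora kinase A, by 2.07 on the log2 scale. Of 10 topoisomerases and condensins 5 fell, with Ncapg, a condensin subunit, 5.95 times lower. Of 24 DNA replication genes 20 fell, with a median of -0.83, and Rrm2, the small subunit of ribonucleotide reductase, was 6.66 times lower.

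Genes that act earlier in the cycle or restrain it were counted too. Of 9 G1 cyclins and kinases 2 fell and 1 rose, counts too small to set apart from the shares of all genes. Cdk6, a kinase of G1, was 2.57 times lower, Ccne1, cyclin E1, fell by 0.60, and Ccnd2, cyclin D2, rose by 0.27 on the log2 scale (limma adjusted p 0.037). Ccnd3 differed by -0.33 with an adjusted p of 0.054. Of 5 CDK inhibitors 2 fell, Cdkn2c by 1.71 and Cdkn3, a phosphatase that acts on CDKs, by 1.91. Cdkn1b (p27), which holds back CDK2 in resting T cells, averaged 10.06 ± 0.09 with abatacept and 9.99 ± 0.07 with control IgG (SD, n = 3 arrays each), and Cdkn1a (p21) differed by -0.46 with a limma adjusted p of 0.10.

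Of 16 cell cycle transcription factors 6 fell. E2f8 was 3.59 times lower and E2f2 2.56 times, and Rbl2, a pocket protein of the repressor complex that binds CHR elements in resting cells, fell by 0.37 (limma adjusted p 0.036). Foxm1 and Mybl2, which help switch on genes of this kind, differed by -0.26 and -0.52 with limma adjusted p of 0.28 and 0.072. Ccnb1 was not analysed here.

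The same lists were counted in tolerised against primed CD4+ cells, where 8.43% of all genes were called lower and 5 of 6 passenger and Aurora partners, 5 of 11 spindle checkpoint genes and 7 of 24 DNA replication genes fell. Cdc20 was 1.95 times lower and Nek2, a centrosome kinase, 2.33 times. In primed against unimmunised CD4+ cells 23 of 24 DNA replication genes fell, against 24.2% of all genes. In CD11c+ cells 13 of 22 DNA replication genes, 7 of 11 spindle checkpoint genes and 5 of 6 CDK inhibitors rose with priming relative to unimmunised mice, against 25.5% of all genes. Of the G1 cyclins and kinases 1 of 8 rose and 2 fell there, and 3 of 15 transcription factors rose. In CD11c+ cells Cdkn1a averaged 5.78 ± 0.30 with abatacept and 7.61 ± 0.52 with control IgG (SD, n = 3 arrays each), a log2 difference of -1.83 ± 0.28 (SE, limma adjusted p 0.0019), where 0 of the 9 were called.

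**Figure D4:**
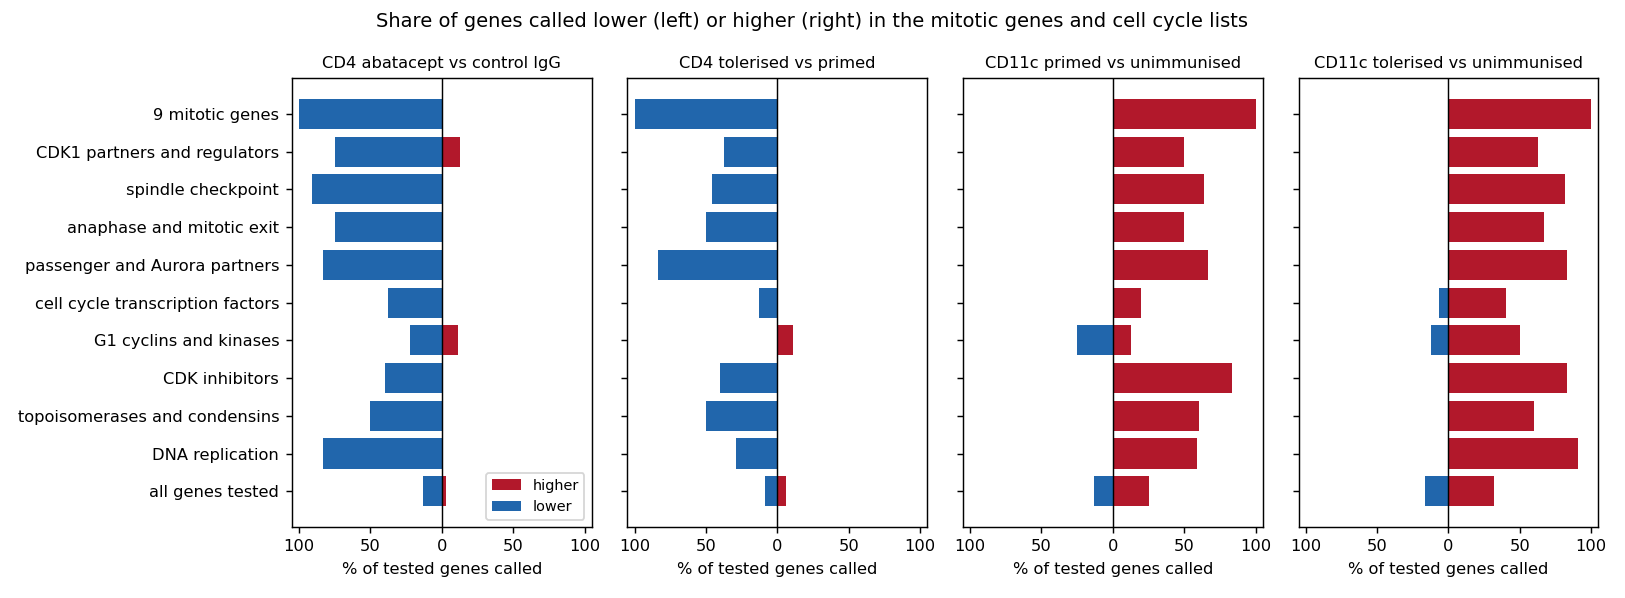
Share of tested genes called lower (bars to the left, in percent) and higher (bars to the right) among the 9 mitotic genes, 9 cell cycle lists and all genes tested, in 4 comparisons. For the 9 genes the bar reaches 100% in each, against 13.4% and 8.43% of all genes called lower in the CD4+ comparisons and 25.5% and 31.9% called higher in the CD11c+ comparisons.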

How the data were processed

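RNA of CD4+ and CD11c+ cells was amplified from 50 ng, labelled with biotin and read on Affymetrix mouse arrays of perfect-match probes, per the labels' protocols. The deposited table holds log2 values made by the authors with RMA, per the submitters' processing notes. The RMA release is not named in the sources used here. It has 45118 probe sets on 30 arrays, with values between 1.667 and 13.242. In the platform annotation 28898 probe sets had 1 gene symbol, 551 several and 15669 none, and those with 1 were used. The Entrez IDs of 28689 matched RefSeq, and 0 symbols were updated. A gene was its probe set with the highest mean, and entered the tests where 3 or more of the 15 arrays of a fraction read above their median (10322 genes in CD4+ and 10203 in CD11c+ cells).

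Groups follow the labels. The lmFit and eBayes functions of limma 3.58.1 (R 4.3.3), two-sided, were fitted over the 15 arrays of a fraction, or over all 30 for comparisons between fractions, with Benjamini-Hochberg adjustment over all genes tested and calls at 0.05. The number of arrays limits the precision. Named were the 9 genes, at most 4 called genes of each cell cycle list, those with the smallest adjusted p, with a few fixed regulators, the 5 genes most correlated with the mean of the 9 in each fraction, and at most 2 genes of each marker list, to which Mpo, Klf1 and Eif2s3y were added after their values were seen. The 9 genes and the lists were chosen with earlier results of these data known. The fit of CD4+ cells given abatacept or control IgG was tested on simulated data (10322 genes), where the shares recovered were 50%, 90%, 98% and 88% for simulated log2 changes of 0.5, 1, 2 and -1, and 7.91% of 177 calls were false. In the CD11c+ fit (10203 genes) 60%, 92%, 100% and 82% were recovered, and 5.11% of 176 calls were false. Alternatives were a fit of only the groups compared, the mean of all probe sets, leaving out each array, no filter, a second quantile normalization, weights for arrays, and a block for the replicate number. Matplotlib 3.10.9 (Python 3.11.15) drew the figures.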

Additional observations from a re-analysis of the deposited data

Results flagged for a closer look

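All 9 genes were singled out in both comparisons in which the change in CD4+ cells was tested against the change in CD11c+ cells, over all 30 arrays with limma. Values are interactions on the log2 scale, the CD4+ difference minus the CD11c+ difference. For abatacept against control IgG, they were -2.57 for Ccnb2, -2.47 for Ccna2 and -2.35 for Cdk1, the genes of the CDK1 engine, with adjusted p of 7.8e-07, 2e-07 and 9.6e-07. Birc5 stood at -2.43 and Aurkb at -1.75, both in the passenger complex. Top2a stood at -2.08 on the probe set used, and at -0.15 and 0.06 on its others (limma adjusted p 0.73 and 0.88). Mki67 stood at -1.90. The smallest were Bub1 at -1.28 (adjusted p 0.027, lost in 6 of 18 alternatives, with -0.73 nearest to 0) and Plk1 at -1.04 (adjusted p 0.0012). The CD4+ change was below 0 for 9 of 9 genes, and so was the CD11c+ change, though 0 of 9 were called in CD11c+ cells alone.

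For tolerised against primed mice, the interactions were -1.56 for Ccna2, -1.48 for Aurkb, -1.41 for Ccnb2 and -1.36 for Cdk1. Bub1 stood at -1.58 (adjusted p 0.0078) on the probe set used, at -0.72 in the alternative nearest to 0, and at 0.14 (adjusted p 0.75) on its other probe set. Top2a stood at -1.29, Birc5 at -1.20, Plk1 at -1.17 and Mki67 at -0.97. Mki67 had the largest adjusted p, 0.015, which was 0.053 without the first CD4+ tolerised array. The other probe sets of Top2a gave -0.56 and 0.11 (limma adjusted p 0.14 and 0.78). Here the CD4+ cells came from mesenteric nodes in the tolerised group and axillary nodes in the primed group. The CD11c+ cells came from pooled nodes and spleen in both groups, so tissue and treatment cannot be told apart. Eif2s3y was high in both CD4+ groups and on the CD11c+ primed arrays, and low on the CD11c+ tolerised arrays. Its part was not tested.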

How the results depend on the processing

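In CD4+ cells 9 of 9 genes were lower for abatacept against control IgG and tolerised against primed under every alternative listed above. So were 9 of 9 for tolerised and abatacept against unimmunised, and the count for abatacept against tolerised ran from 7 to 9. Other probe sets read alone were not among these alternatives. On them Bub1 and Top2a were not called for abatacept against control IgG, tolerised against primed or tolerised against unimmunised (limma adjusted p 0.16 to 0.98). For abatacept against unimmunised, Bub1 had an adjusted p of 0.049 and Top2a 0.051 and 0.96. Of 271 recomputed counts 254 stayed within 1.5 times of the reported count, and of 2432 recomputed gene values 2299 kept direction and side of the threshold. For primed against unimmunised CD4+ cells, leaving out 1 array gave 2 to 6 genes. In CD11c+ cells, leaving out 1 array gave 0 to 3 for tolerised against primed, 4 to 9 for abatacept against tolerised and 1 to 3 for abatacept against unimmunised. The last count was 2 with no filter, 1 after quantile normalization again and 1 with only the groups compared. Between the fractions with control IgG it gave 2 to 5. It gave 8 to 9 for primed against unimmunised CD11c+ cells and for both interactions, and 6 to 9 between the fractions in tolerised mice. Without the arrays high in Amy1 the counts were 3 for abatacept against tolerised CD11c+ cells, 0 for abatacept against unimmunised, and 2 between the fractions with control IgG, with 5 arrays fewer in the fit. The causes were not tested further.

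Values that changed sign were small and none was called. With the mean of all probe sets Top2a stood at 0.02 for primed against unimmunised CD4+ cells. Leaving out 1 array in turn, Cdk1 ran from -0.22 to 0.03 for abatacept against control IgG in CD11c+ cells (0.01 without the first abatacept array). For control IgG against primed CD11c+ cells, Plk1 ran from -0.03 to 0.09 (-0.01 without the first control IgG array) and Top2a from -0.16 to 0.01. For CD4+ against CD11c+ cells with control IgG, Aurkb ran from -0.09 to 0.06, with 0.05 after quantile normalization again and 0.04 with the mean of all probe sets, and Bub1 ran from -0.19 to 0.26, with -0.02 without the first CD11c+ array.

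With the replicate number as a block, 9 genes were lower for abatacept against control IgG in CD4+ cells and 6 for primed against unimmunised, and no count moved by over 1.5 times. The numbers were not taken as pairs, since same-numbered arrays did not all correlate above 0.1 in any comparison, from -0.23 to 0.28. The 3 tolerised and 3 primed CD11c+ pairs were the only ones in which all 3 numbers correlated best with their own, at 0.02 to 0.04. Bub1, below the array median on all 3 CD4+ abatacept arrays, has the least certain fold.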
